A study of Mus musculus with 4 samples.

Results

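The 10 pluripotency factor genes Pou5f1, Sox2, Sall4, Lin28a, Lin28b, Zfp42, Klf4, Myc, Utf1 and Tfap2c were followed through oocyte growth. They were picked by gene symbol, and all 10 were found among the 25587 genes of the deposited table. OCT4 (encoded by Pou5f1) and SOX2 bind DNA side by side in embryonic stem cells and hold the pluripotent state together with SALL4, KLF4 and other factors. OCT4, SOX2, KLF4 and MYC together can turn somatic cells into pluripotent cells, and the RNA-binding LIN28 proteins can aid this. Oocytes are not pluripotent themselves, but they descend from germ cells that express many of these genes and give rise to the totipotent zygote.

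RNA-Seq libraries of wild-type C57BL/6Babr oocytes were compared at 4 stages, with 1 library per stage, each made from pooled oocytes. NGOs were non-growing oocytes from mice of 5 days post-partum (dpp), GO1 and GO2 were growing oocytes of 8 to 14 dpp and of 15 dpp, and FGOs were fully grown oocytes of 20 dpp. Total RNA was depleted of ribosomal RNA. NGO and FGO RNA went through a dUTP protocol, whereas a ScriptSeq kit was used for GO1 and GO2, and stage and protocol cannot be told apart between these pairs. Changes were therefore computed only within the dUTP pair (from NGOs to FGOs) and within the ScriptSeq pair (from GO1 to GO2), and levels of the 4 libraries are otherwise set side by side.

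Levels are the authors' RPKM values, that is read numbers corrected for exon length in kilobases and for a library total. The counts recovered from them summed over all genes to 61678284 for NGOs and 69021843 for FGOs, and to 71898633 for GO1 and 133069632 for GO2. Ranges in parentheses are 95 % intervals for counting error only, since there was no replicate of any stage and no test between stages was possible. Reads may have been counted more than once, which would make these ranges too narrow. Each value is an average over pooled oocytes, so fewer oocytes with a transcript and fewer transcripts per oocyte cannot be told apart.

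With at least 3 counts taken as detected, 8 of the 10 genes were detected in each of NGOs, GO1 and GO2, and 9 in FGOs, where 64.9, 66.1, 71.0 and 65.4 % of all listed genes were detected in NGOs, GO1, GO2 and FGOs. Pou5f1, Lin28a, Sall4 and Tfap2c were abundant, Lin28b and Klf4 lay near 1 or 2 RPKM, and Sox2 and Zfp42 lay near or below 0.5 RPKM. Myc had at most 7 counts in a library, and Utf1 was listed at 0 in each. The summed level of the 10 genes was 127 RPKM in NGOs and 135 RPKM in FGOs, and 129 and 128 RPKM in GO1 and GO2. Their median was 1.38, 1.68, 1.65 and 1.44 RPKM, where the median of all listed genes was 0.153, 0.143, 0.166 and 0.173 RPKM. Among detected genes alone the median was 2.07, 1.54, 1.27 and 1.94 RPKM. This was above the median of the 10 genes in NGOs and FGOs and below it in GO1 and GO2. A level of at least 30 RPKM was reached by 2, 3, 3 and 3 of the 10 genes in NGOs, GO1, GO2 and FGOs, and by 4.43, 4.11, 4.03 and 4.4 % of all listed genes.

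**Figure D1:**
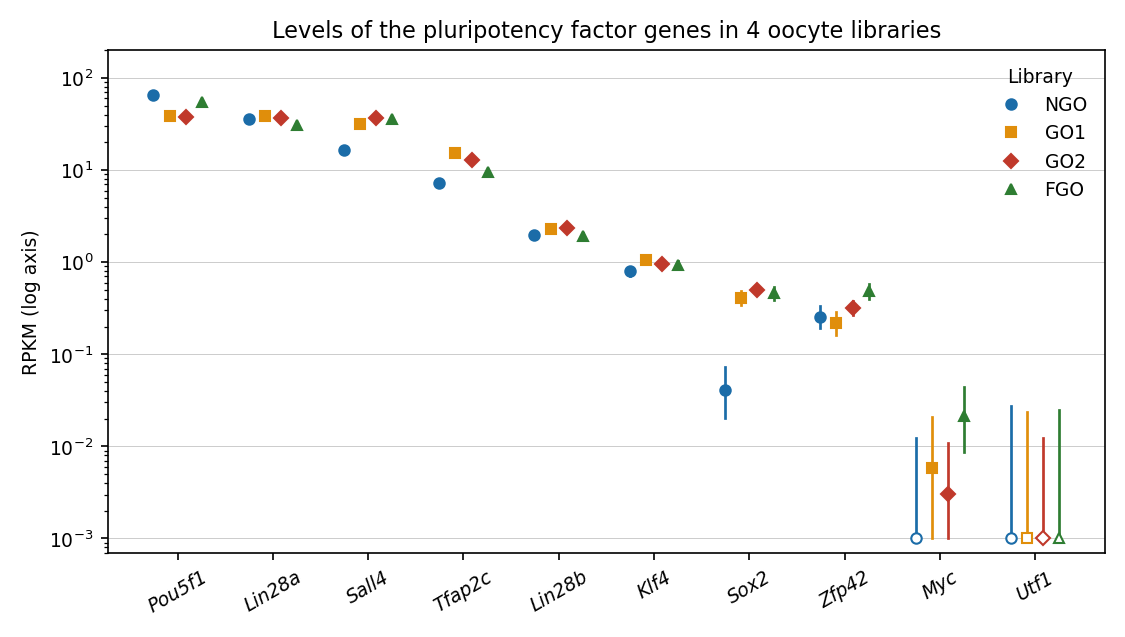
RPKM (log axis) of each pluripotency factor gene in the NGO, GO1, GO2 and FGO libraries, with 95 % Poisson intervals for counting error as vertical lines; values listed at 0 are open symbols at the foot of the axis, where intervals reaching further down are cut off. Pou5f1 lies between 37.9 and 64.5 RPKM, whereas Sox2 lies at 0.0405 RPKM in NGOs and between 0.411 and 0.504 RPKM in the other libraries.

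Pou5f1 encodes the POU-domain transcription factor OCT4, without which the inner cell mass of the embryo loses pluripotency. The gene lies on the plus strand of GRCm38 at chr17:35506037-35510776. Its level was 64.5 RPKM (63.6 to 65.6) in NGOs and 54.8 RPKM (53.9 to 55.7) in FGOs, with 38.8 RPKM (38.1 to 39.5) in GO1 and 37.9 RPKM (37.3 to 38.4) in GO2. The intervals of GO1 and GO2 overlapped. These levels exceeded those of 98.5 % of all listed genes in NGOs and 98.0 % in FGOs, and of 97.1 % in GO1 and 97.0 % in GO2. From NGOs to FGOs its log2 change was -0.18 (-0.22 to -0.15), and GO2 differed from GO1 by -0.07 (-0.10 to -0.04), both far from 4-fold. RefSeq names 7 pseudogenes of Pou5f1, and 0 of them are in the table, so reads shared with them cannot be told apart. Gm19553, which lies on the opposite strand and shares 1475 bases with the span of Pou5f1, was at 0, 0.415, 0.688 and 0.102 RPKM in NGOs, GO1, GO2 and FGOs, far below Pou5f1 in each.

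Sox2, the HMG-box partner of OCT4, is a gene of 1 exon on the plus strand at chr3:34650005-34652461. Only 11 counts fell on it in NGOs, beside 128 in GO1, 299 in GO2 and 135 in FGOs. NGOs were at 0.0405 RPKM (0.0202 to 0.0724), GO1 at 0.411 (0.343 to 0.489), GO2 at 0.504 (0.449 to 0.565) and FGOs at 0.459 (0.385 to 0.544). The NGO library thus stood apart, with an interval that did not reach those of the other libraries. Of the 8 members with enough counts (20 or more in the pair), Sox2 was the only one past 4-fold, with a log2 change of 3.45 from NGOs to FGOs (2.67 to 4.59). Among all 15270 genes with enough counts, 8.57 % were at least 4-fold higher and 5.55 % at least 4-fold lower in FGOs. From GO1 to GO2 the log2 change of Sox2 was 0.26 (-0.04 to 0.57), an interval that held 0. The call from NGOs to FGOs rests on the 11 counts of NGOs, and with all counts divided by 4 its interval was 1.77 to 5.79, which reaches below 4-fold.

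Sox2 stayed low beside its partner in each library. The RPKM of Pou5f1 was 1590 times that of Sox2 in NGOs and 119 times in FGOs, and 94.5 and 75.1 times in GO1 and GO2. The whole of Sox2 lies inside the span of the non-coding gene Sox2ot on the same strand (chr3:34104438-34682619), so reads of Sox2ot transcripts that run through Sox2 could have been given to either. Sox2ot had 4, 148, 361 and 56 counts in NGOs, GO1, GO2 and FGOs and was at 0.00419, 0.135, 0.173 and 0.0542 RPKM. Both genes were lowest in NGOs, and what part of the Sox2 values came from Sox2ot was not tested.

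Among 14 other POU genes, 8, 11, 9 and 9 were detected in NGOs, GO1, GO2 and FGOs, and Pou5f1 was above each of them in every library. The most abundant was Pou4f1, a factor best known from sensory neurons, at 8.17, 14.6, 13.4 and 11.5 RPKM, so that Pou5f1 exceeded it 7.90-fold in NGOs and 4.77-fold in FGOs, but 2.66-fold and 2.83-fold in GO1 and GO2. Pou2f1, which encodes the widely expressed OCT1, was at 3.93, 8.26, 7.10 and 3.999 RPKM. Pou2f3 passed 4-fold from NGOs to FGOs, from 1 to 95 counts (log2 change of 5.57, 3.996 to 11.83), and 0 of 7 POU genes with enough counts were lower by that much.

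Sox2 was not the main SOX gene of these libraries. Of 18 other SOX genes, 11, 11, 12 and 11 were detected in NGOs, GO1, GO2 and FGOs, and 2 of them reached 1 RPKM in each. For Sox15 NGOs were at 4.42 RPKM, GO1 at 20.5, GO2 at 20.0 and FGOs at 6.86, levels that were 109, 49.8, 39.6 and 14.9 times those of Sox2. Sox8 was at 3.77, 5.37, 4.69 and 6.88 RPKM in the same order. Among these other SOX genes Sox30 was the one past 4-fold, with 18 counts in NGOs and 3 in FGOs (log2 change of -2.28, -5.05 to -0.87). With counts divided by 4 its interval was -7.68 to 1.28, which includes 0.

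Sall4, a zinc finger gene that acts with OCT4 in embryonic stem cells and is needed in germ cells, lies on the minus strand at chr2:168748332-168767943. Its level was 16.5 RPKM (16.1 to 16.8) in NGOs and 35.6 RPKM (35.2 to 36.1) in FGOs, with 31.9 RPKM (31.5 to 32.3) in GO1 and 36.4 RPKM (36.1 to 36.8) in GO2. NGOs were lowest, and the intervals of GO2 and FGOs came close without meeting. From NGOs to FGOs Sall4 was 2.24-fold higher (log2 change of 1.17, 1.13 to 1.20). It passed 2-fold but not 4-fold in this pair, where 17.7 % of the genes with enough counts were at least 2-fold higher and 16.8 % at least 2-fold lower. From GO1 to GO2 its log2 change was 0.16 (0.14 to 0.18). Gm14261, on the opposite strand over the start of Sall4, was at most at 0.0928 RPKM.

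All 3 other SALL genes were detected in NGOs, GO1 and GO2, and 2 of them in FGOs, at levels below that of Sall4. Sall2 was at 1.80, 3.58, 3.62 and 4.04 RPKM, so the ratio of Sall4 to Sall2 was 9.13 in NGOs and 8.82 in FGOs, beside 8.89 and 10.1 in GO1 and GO2. Sall2 was higher in FGOs than in NGOs by a log2 change of 1.22 (1.11 to 1.32), close to that of Sall4. Sall3 fell past 4-fold, from 0.205 to 0.0158 RPKM (log2 change of -3.54, -4.59 to -2.83).

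The RNA-binding proteins LIN28A and LIN28B block the maturation of let-7 microRNAs and also bind many mRNAs. Lin28a lies on the minus strand at chr4:134003330-134018841, and Lin28b at chr10:45376620-45470201. For Lin28a NGOs were at 35.9 RPKM (35.3 to 36.5), GO1 at 39.1 (38.5 to 39.6), GO2 at 36.4 (36.0 to 36.8) and FGOs at 30.9 (30.4 to 31.4). The log2 change of Lin28a was -0.16 (-0.20 to -0.13) from NGOs to FGOs and, within the ScriptSeq pair, -0.14 (-0.16 to -0.11).

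Lin28b was at 1.96 RPKM (1.85 to 2.07) in NGOs and 1.94 RPKM (1.83 to 2.05) in FGOs, and at 2.32 RPKM (2.21 to 2.44) in GO1 and 2.33 RPKM (2.25 to 2.42) in GO2. The intervals of NGOs and FGOs overlapped, as did those of GO1 and GO2. Its log2 change was 0.04 (-0.08 to 0.16) in the dUTP pair and -0.02 (-0.11 to 0.06) in the ScriptSeq pair, and both signs turned when the deposited RPKM were compared without further scaling. Per length, Lin28a exceeded Lin28b 18.3-fold in NGOs and 15.9-fold in FGOs, and 16.8-fold and 15.6-fold in GO1 and GO2. Gm13061, which overlaps the start of Lin28a on the opposite strand, was at 1.53, 0.404, 0.487 and 2.37 RPKM in NGOs, GO1, GO2 and FGOs. Dhdds, which starts within 5 kbp of Lin28a, was at 7.86, 3.48, 3.62 and 7.28 RPKM.

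Of 16 other genes of the LIN28 and let-7 pathway found in the table, all 16 were detected in each library, and 0 passed 4-fold in either pair. Of all genes with enough counts, 8.57 % were at least 4-fold higher and 5.55 % lower from NGOs to FGOs. From GO1 to GO2 these shares were 1.51 and 0.254 %. At 2-fold, 0 of the 16 were higher and 4 lower from NGOs to FGOs, beside 17.7 and 16.8 % of all genes. The median log2 change of the pathway genes with enough counts was -0.15 in the dUTP pair and -0.04 in the ScriptSeq pair, beside -0.01 and 0.02 for all genes. Dicer1, which encodes the nuclease that cuts microRNA precursors, was the most abundant, at 44.3, 73.0, 62.2 and 42.4 RPKM. Igf2bp2, an mRNA-binding protein gene, was at 22.5, 50.1, 35.6 and 21.6 RPKM, and Xpo5, the exporter of microRNA precursors, was at 18.4, 21.6, 23.2 and 18.7 RPKM. Trim71, a let-7 target that encodes a ubiquitin ligase, was at 22.7 RPKM in NGOs and 8.02 RPKM in FGOs, and at 8.22 and 7.15 RPKM in GO1 and GO2.

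Since let-7 also targets the Lin28 mRNAs, the 3′UTRs of the 10 genes were searched for matches to its seed. All 9 mature sequences of the family in RefSeq share the seed GAGGUAG, at bases 2 to 8, shown in capitals for let-7a. The microRNAs themselves were not measured in these libraries.
mmu-let-7a-5p: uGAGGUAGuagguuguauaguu

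The longest annotated 3′UTR of Lin28a, of 2775 bases, held 2 matches to the seed (CTACCTC), that of Lin28b, of 4445 bases, held 4, and that of Sall4, of 1697 bases, held 1. The 3′UTRs of the other 7 genes held 0. At least as many matches as in Lin28a were present in 2.06 % of 2624 genes with a 3′UTR of 0.8 to 1.25 times its length. At least as many as in Lin28b were present in 0.295 % of 1358 such genes, and at least 1 match, as in Sall4, in 11.4 % of 3167 such genes. Trim71 and Hmga2, the latter chosen as a known let-7 target after its values were seen, held 4 matches each. Hmga2 was at 5.85, 11.2, 6.20 and 1.87 RPKM in NGOs, GO1, GO2 and FGOs. The matches are shown in capitals within 22 bases of the transcript strand, since pairing with a microRNA extends upstream of the seed. On the minus strand of GRCm38 they lie at chr4:134005189-134005210 and chr4:134004551-134004572 for Lin28a, at chr10:45381022-45381043, chr10:45378648-45378669, chr10:45378476-45378497 and chr10:45377060-45377081 for Lin28b, and at chr2:168748940-168748961 for Sall4. A match describes the sequence only and is not a measured site.
Lin28a 3′UTR match 1: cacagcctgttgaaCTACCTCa
Lin28a 3′UTR match 2: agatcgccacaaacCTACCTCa
Lin28b 3′UTR match 1: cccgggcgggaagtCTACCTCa
Lin28b 3′UTR match 2: atacttgttagtaaCTACCTCt
Lin28b 3′UTR match 3: tttacagcacatggCTACCTCc
Lin28b 3′UTR match 4: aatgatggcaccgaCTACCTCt
Sall4 3′UTR match 1: gggctttaatttatCTACCTCa

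Tfap2c encodes AP-2γ, which acts downstream of BLIMP1 in primordial germ cells and lies on the plus strand at chr2:172549593-172558622. NGOs were at 7.33 RPKM (7.07 to 7.59), GO1 at 15.2 (14.9 to 15.6), GO2 at 12.8 (12.6 to 13.0) and FGOs at 9.53 (9.25 to 9.82). No intervals overlapped, and the order from high to low was GO1, GO2, FGOs and NGOs. FGOs exceeded NGOs by a log2 change of 0.43 (0.36 to 0.50), and the change from GO1 to GO2 was -0.28 (-0.32 to -0.24). Of the 4 other AP-2 genes, 3 were detected in each library, and Tfap2e was the main AP-2 gene at 9.35, 20.0, 27.3 and 42.9 RPKM. The ratio of Tfap2e to Tfap2c was 1.28 in NGOs and 4.50 in FGOs, and 1.31 and 2.13 in GO1 and GO2. From NGOs to FGOs Tfap2e rose past 4-fold (log2 change of 2.25, 2.19 to 2.32), as did the much rarer Tfap2b, from 12 to 96 counts (log2 change of 2.85, 2.07 to 3.94). With counts divided by 4 the interval of Tfap2b was 1.22 to 5.31, which reaches below 4-fold.

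Klf4, a Krüppel-like zinc finger gene and reprogramming factor, lies on the minus strand at chr4:55527143-55532466. Its level was 0.795 RPKM (0.702 to 0.896) in NGOs and 0.932 RPKM (0.836 to 1.04) in FGOs, with 1.05 RPKM (0.948 to 1.15) in GO1 and 0.966 RPKM (0.896 to 1.04) in GO2. The intervals of GO1, GO2 and FGOs overlapped one another, and that of NGOs also overlapped that of FGOs. The log2 change of Klf4 was 0.28 (0.05 to 0.52) in the dUTP pair and -0.15 (-0.33 to 0.03) in the ScriptSeq pair. Its levels exceeded those of 60.0, 63.7, 62.3 and 60.9 % of all listed genes in NGOs, GO1, GO2 and FGOs. Among detected genes alone these shares were 38.4, 45.2, 46.9 and 40.2 %.

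Klf17, Klf11, Klf16, Klf10, Klf7 and Klf13 were more abundant than Klf4 in each library. Of 16 other KLF genes in the table, 15, 14, 15 and 12 were detected in NGOs, GO1, GO2 and FGOs, and their median of 0.375, 0.298, 0.282 and 0.244 RPKM was below Klf4. Klf17 was at 33.4, 53.9, 65.1 and 72.2 RPKM, or 42.1, 51.4, 67.4 and 77.5 times the level of Klf4. Klf11 was at 24.2, 14.7, 14.4 and 14.9 RPKM, and Klf16 at 11.4, 5.35, 7.39 and 16.8 RPKM. Klf3 was the KLF gene past 4-fold, from 0.354 to 0.0641 RPKM between NGOs and FGOs (log2 change of -2.35, -3.21 to -1.69). With counts divided by 4 its interval was -4.07 to -0.90, and both intervals reach below 4-fold.

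Myc, the basic helix-loop-helix factor among the reprogramming genes, lies at chr15:61985391-61990374 on the plus strand. No count fell on it in NGOs, 2 each in GO1 and GO2, and 7 in FGOs. The level in FGOs was 0.0215 RPKM (0.00866 to 0.0444), while 3 counts would have been 0.00998, 0.00871 and 0.00457 RPKM in NGOs, GO1 and GO2. With so few counts Myc was left out of both comparisons. MAX, the partner through which MYC binds DNA, was in contrast well represented, with Max at 19.8, 19.1, 20.8 and 18.2 RPKM. Of 12 other genes of the MYC and MAX network, 11, 11, 12 and 12 were detected in NGOs, GO1, GO2 and FGOs, and 0 passed 4-fold in either pair. Of all genes with enough counts, 8.57 % were at least 4-fold higher and 5.55 % lower from NGOs to FGOs. From GO1 to GO2 these shares were 1.51 and 0.254 %. Next to Max stood Mlx at 25.7, 15.1, 13.4 and 13.0 RPKM, and the MYC antagonists Mxd1 at 8.56, 16.2, 15.1 and 21.04 RPKM and Mxd4 at 13.98, 8.61, 11.5 and 21.03 RPKM.

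**Figure D2:**
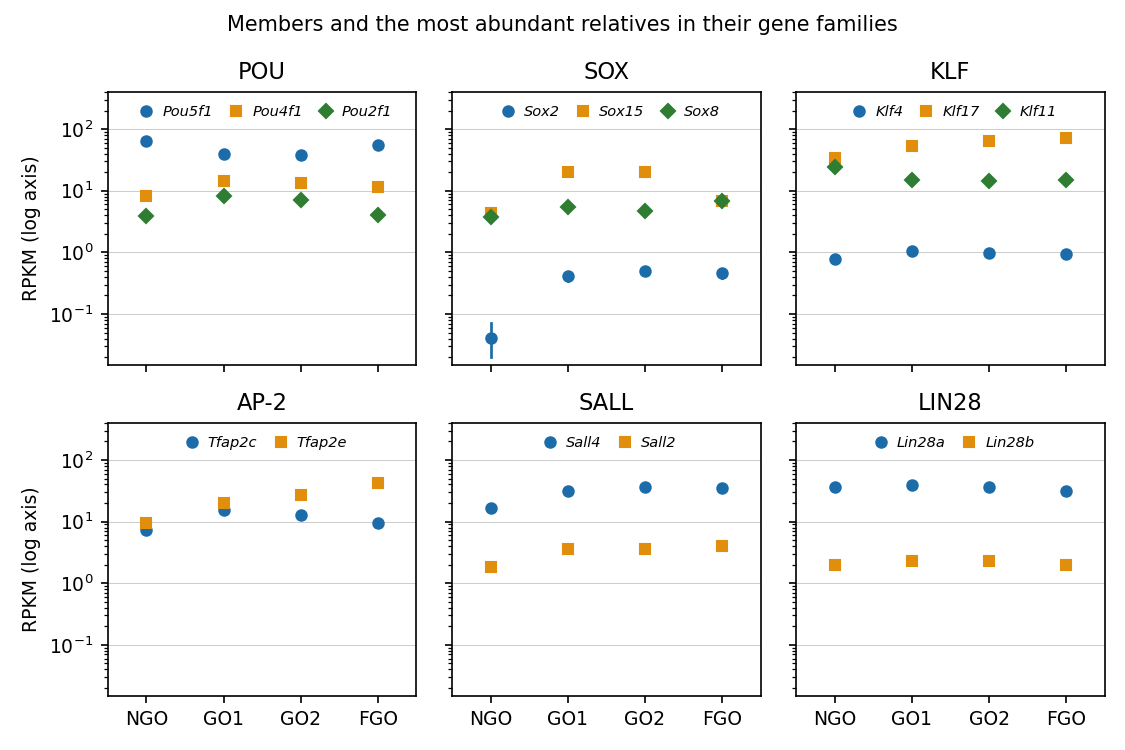
RPKM (log axis) of 6 of the pluripotency factor genes, with Lin28b, beside the most abundant relatives in their gene families in the NGO, GO1, GO2 and FGO libraries; vertical lines are 95 % Poisson intervals for counting error. Pou5f1, Sall4 and Lin28a lie above the relatives shown in each library, and Sox2 and Klf4 lie below theirs.

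Zfp42 encodes REX1, a zinc finger protein used as a mark of naive pluripotency, and lies on the minus strand at chr8:43295068-43307009. It had 51, 50, 139 and 104 counts in NGOs, GO1, GO2 and FGOs. NGOs were at 0.256 RPKM (0.191 to 0.337), GO1 at 0.219 (0.163 to 0.289), GO2 at 0.320 (0.269 to 0.378) and FGOs at 0.483 (0.395 to 0.585). FGOs stood above the other libraries, whose intervals overlapped one another. Its log2 change was 0.96 (0.47 to 1.48) in the dUTP pair, just under 2-fold, and 0.51 (0.04 to 1.01) in the ScriptSeq pair. RefSeq names 1 pseudogene of Zfp42, so shared reads cannot be told apart. The related gene Yy1 was at 7.48, 11.0, 8.40 and 4.77 RPKM and Yy2 at 1.56, 2.34, 2.37 and 3.31 RPKM, both above Zfp42 in each library, and 0 of these 2 genes passed 4-fold.

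Utf1, a chromatin-associated factor of embryonic stem cells at chr7:139943789-139945112 on the plus strand, was listed at 0 in each library. A count of 3 would have given 0.0221, 0.0193, 0.0101 and 0.0204 RPKM in NGOs, GO1, GO2 and FGOs.

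In both pairs 8 of the 10 genes had at least 20 counts, with Myc and Utf1 left out. From NGOs to FGOs 1 of the 8 was at least 4-fold higher, 2 were at least 2-fold higher and 0 were at least 2-fold lower, beside 8.57, 17.7 and 16.8 % of all genes with enough counts. Their median log2 change was 0.36, beside -0.01 for all 15270 genes. From GO1 to GO2, 0 of the 8 were 2-fold higher or lower, and their log2 changes ran from -0.28 for Tfap2c to 0.51 for Zfp42. Of 15747 genes with enough counts in this pair, 1.51 % were at least 4-fold and 6.83 % at least 2-fold higher in GO2, and 0.254 % were at least 4-fold and 2.86 % at least 2-fold lower. Of the POU, SOX, KLF, SALL and AP-2 relatives with enough counts, 0 passed 4-fold from GO1 to GO2 either. The median log2 change in this pair was -0.05 for the 8 genes and 0.02 for all genes.

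**Figure D3:**
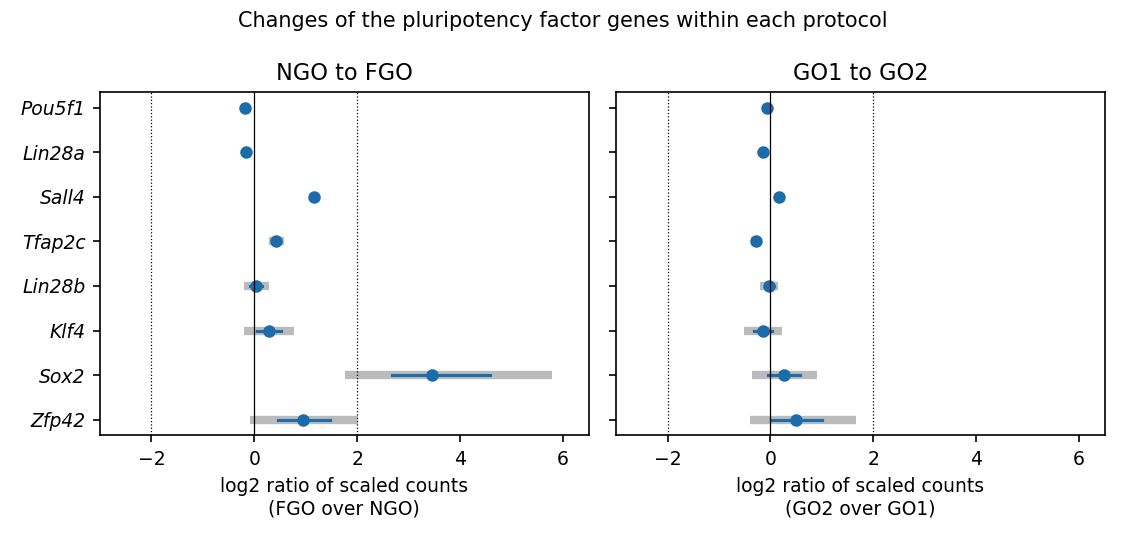
Log2 ratio of scaled counts from NGOs to FGOs (left) and from GO1 to GO2 (right) for the 8 pluripotency factor genes with enough counts; blue lines are 95 % conditional binomial intervals for counting error, grey bars the same intervals with counts divided by 4, and dotted lines mark 4-fold. Sox2 is past 4-fold from NGOs to FGOs, at 3.45, and the other values lie between -0.28 and 1.17.

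Within each library the 10 genes kept nearly the same order. Pou5f1 was the highest in NGOs, GO2 and FGOs, and in GO1 Lin28a was level with it, their intervals overlapping. Sall4 stood below Lin28a in NGOs and GO1 and above it in FGOs, while in GO2 the intervals of these genes overlapped. Tfap2c, Lin28b and Klf4 took the next places in every library. Zfp42 was above Sox2 in NGOs, below it in GO1 and GO2, and had an interval overlapping that of Sox2 in FGOs.

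The profiles of the 3 most abundant members were compared with those of the 12920 genes that had 20 counts or more in every library, by the root mean square difference of log2(RPKM + 0.1) over the 4 libraries. Nearest to Pou5f1 were the proteasome gene Psmd8 (difference of 0.09), Kctd3 (0.13) and the respiratory chain gene Cox7a2l (0.14). Pdzk1 (0.06), the asparaginyl-tRNA synthetase gene Nars (0.08) and Ywhae (0.09) were nearest to Lin28a. For Sall4 they were the importin gene Kpna3 (0.10), the ubiquitin ligase gene Smurf2 (0.11) and Prickle1 (0.12). With only 4 libraries, such likeness is a description of levels and does not speak of shared control.

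Promoters in RefSeq, 250 bases before to 50 bases after a gene start, were available for 7 of the 10 genes, in 8 windows, with none used for Sall4, Tfap2c and Myc. Whether oocytes start transcription at these annotated sites was not tested, and the paper describes other upstream starts in oocytes for some reference genes. The number of CpGs was 11 and 6 in the windows of Pou5f1, 27 in Sox2, 40 in Klf4, 11 in Zfp42, 17 in Utf1, 10 in Lin28a and 8 in Lin28b, where the median of 32851 promoters was 7. Klf4 and Sox2, both of low abundance, thus had CpG-rich annotated starts, above 96.1 and 84.5 % of promoters. Pou5f1 and Lin28a, both abundant, lay near the middle, above 58.6 (upstream window of Pou5f1) and 56.5 % of promoters. The less abundant Zfp42 and Lin28b also lay near the middle, above 58.6 and 51.4 %, and Utf1 lay above 68.6 %. Motifs were searched on both strands. The octamer ATTTGCAT, bound by OCT factors, was found in Zfp42 at base 65 of the window, where it overlaps an E-box (CANNTG), and in 1.74 % of all promoters. The SOX motif ACAAAG was found in Sox2 at base 45 and in 18.7 % of all promoters. A GC box (GGGCGG) was found in Pou5f1, Sox2, Klf4, Zfp42, Utf1 and Lin28a and in 35.7 % of all promoters. The NOBOX element TAATTG was found in Lin28b and in 8.0 % of all promoters, and the TATA box TATAAA in 0 of the 8 windows and in 13.6 % of all promoters.

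Pou5f1 was the most abundant of the genes in NGOs, GO2 and FGOs, Sox2 was the gene past 4-fold, and Zfp42 holds the octamer. Their promoters are shown 5′ to 3′ on the strand of the gene with the GC box, SOX and octamer motifs in capitals. They lie at chr17:35505782-35506081 (plus strand), chr3:34649745-34650044 (plus strand) and chr8:43306960-43307259 (minus strand) of GRCm38.p6. A match is a description of the sequence, and binding was not measured.
Pou5f1 promoter: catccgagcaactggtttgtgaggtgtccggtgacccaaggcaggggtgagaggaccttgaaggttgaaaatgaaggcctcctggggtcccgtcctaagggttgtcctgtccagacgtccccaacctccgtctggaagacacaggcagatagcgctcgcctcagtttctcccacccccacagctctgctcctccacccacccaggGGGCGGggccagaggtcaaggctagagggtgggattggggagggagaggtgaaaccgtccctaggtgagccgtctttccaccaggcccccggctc
Sox2 promoter: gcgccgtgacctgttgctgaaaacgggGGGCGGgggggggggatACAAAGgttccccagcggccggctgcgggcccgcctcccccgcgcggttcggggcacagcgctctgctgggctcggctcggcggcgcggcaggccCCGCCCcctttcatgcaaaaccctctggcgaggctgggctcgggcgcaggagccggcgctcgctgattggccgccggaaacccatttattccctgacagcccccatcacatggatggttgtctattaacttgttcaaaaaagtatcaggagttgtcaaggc
Zfp42 promoter: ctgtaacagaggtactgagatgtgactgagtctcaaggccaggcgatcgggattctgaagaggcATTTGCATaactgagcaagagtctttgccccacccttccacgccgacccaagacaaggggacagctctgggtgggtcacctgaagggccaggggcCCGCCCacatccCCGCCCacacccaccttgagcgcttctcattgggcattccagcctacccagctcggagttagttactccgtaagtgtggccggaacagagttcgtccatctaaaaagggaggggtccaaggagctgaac

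Beside the 10 genes, the wider pluripotency network was represented in part. Of 32 other genes listed here under the core and naive pluripotency network, 21, 23, 24 and 22 were detected in NGOs, GO1, GO2 and FGOs. In the same order, 64.9, 66.1, 71.0 and 65.4 % of all listed genes were detected. Nanog, Fgf4, Nodal and Lefty1 were listed at 0 in each library, like Utf1. Dppa5a was at 283, 96.9, 103 and 173 RPKM, Tcl1 at 242, 130, 159 and 262 RPKM and Zfp57 at 116, 160, 159 and 154 RPKM, all above Pou5f1 in each library. The list was drawn up here, and a place in it does not define a gene as a pluripotency factor. Nr0b1 passed 4-fold, from 0.330 RPKM in NGOs to 0.0416 in FGOs (log2 change of -2.80, -4.13 to -1.92). With counts divided by 4 its interval was -6.22 to -0.97, and both intervals reach below 4-fold. In the same pair 0 of 19 genes with enough counts were at least 4-fold higher. Of all genes with enough counts, 8.57 % were higher and 5.55 % lower by that much. The median log2 change of these network genes was 0.45 in the dUTP pair and 0.04 in the ScriptSeq pair, beside -0.01 and 0.02 for all genes. In the ScriptSeq pair 0 of 20 passed 4-fold, where 1.51 % of all genes were higher and 0.254 % lower by that much.

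The libraries carried the marks of oocytes. All 16 germ cell and oocyte markers were detected in each library, with Zp2, which encodes a protein of the zona pellucida, at 2261, 1643, 1403 and 1052 RPKM in NGOs, GO1, GO2 and FGOs. Their summed level was 8606, 6521, 6027 and 5774 RPKM. Figla and Sohlh1, factors of early oocytes, were at least 4-fold lower in FGOs than in NGOs, Figla going from 102 to 20.6 RPKM and Sohlh1 from 78.0 to 0.577 RPKM.

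Markers of other ovarian cells differed between the libraries. The 10 stroma and theca markers summed to 5.94 RPKM in NGOs and 0.365 in FGOs, and to 0.376 and 0.471 in GO1 and GO2, with 9, 9, 7 and 6 of them detected, Col1a1 the most abundant at 2.24 RPKM in NGOs, and Lum at 0 in GO1, GO2 and FGOs. Of these, 5 of 7 with enough counts were at least 4-fold lower in FGOs than in NGOs, beside 5.55 % of all genes with enough counts. The 8 blood and macrophage markers in the table summed to 1.98, 0.553, 0.648 and 0.367 RPKM, with 6, 2, 3 and 3 detected, Hba-a1 the most abundant at 0.902 RPKM in NGOs, and Hba-a2 at 0 in each library. The 12 granulosa cell markers summed to 3.28, 2.64, 5.23 and 11.2 RPKM, with 12, 11, 12 and 12 detected and Cyp19a1 the most abundant at 6.08 RPKM in FGOs. The 7 endothelial markers summed to 3.73, 7.42, 11.5 and 14.2 RPKM, with 6, 5, 5 and 5 detected, Pecam1 the most abundant at 9.70 RPKM in FGOs, Emcn at 0 in each library and Cdh5 at 0 in GO2 and FGOs. The 6 markers of the ovarian surface epithelium summed to 1.96, 2.53, 2.31 and 1.99 RPKM, with 6, 3, 3 and 3 detected, Krt8 the most abundant at 1.82 RPKM in GO1, and Krt19 and Msln at 0 in GO1, GO2 and FGOs. From NGOs to FGOs, Cyp19a1 and Hsd17b1 of 12 granulosa cell markers with enough counts were at least 4-fold higher and Wt1 was lower, Pecam1 and Tie1 of 5 endothelial markers and Upk3b of 3 surface epithelium markers were higher, and Hbb-b1 and Hba-a1 of 5 blood markers were lower. Of all genes with enough counts, 8.57 % were at least 4-fold higher and 5.55 % lower from NGOs to FGOs. From GO1 to GO2 Csf1r, with 3 and 58 counts (log2 change of 3.04, 1.69 to 5.63), was the only marker of these lists past 4-fold. In this pair 1.51 % of all genes were higher and 0.254 % lower by that much. With counts divided by 4 the interval of Csf1r was 0.13 to 8.25, which reaches below 4-fold. Those of Hsd17b1, Wt1, Upk3b and Hbb-b1 from NGOs to FGOs did so too. The part of such cells in the levels of the pluripotency factor genes was not tested.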

How the data were processed

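Values of the NGO, GO1, GO2 and FGO libraries were analysed. The authors deposited linear RPKM values of reference genes, made from reads trimmed with Trim Galore 0.2.8 and mapped to GRCm38 with TopHat2 2.0.9, per the submitters' processing notes. The program, gene annotation and strand setting used to count reads for this table are not stated in the sources used here. Counts had been planned for and were recovered from the RPKM. The library totals were chosen so that nearly all values of single-exon genes of GENCODE M21 became whole counts, and the exon length of every other gene above 0 was the GENCODE length, or otherwise the smallest length, that made its counts whole, save for 10 genes where none did and the rounded count at the GENCODE length was used. All Lin28a counts can be divided by 4 and all Lin28b counts by 2, so their lengths, and with them their counts, may be overstated by these factors, which leaves RPKM as it is but would make their printed intervals too narrow.

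A gene with at least 3 counts was taken as detected. Changes are log2 count ratios, scaled with TMM (a trimmed mean of log ratios, leaving out 30 % of ratios and 5 % of means at each end), with a prior count of 1. They were computed where both libraries of a pair together had 20 counts or more, and called at 4-fold. Intervals are exact 95 % Poisson intervals for levels and exact conditional binomial intervals for ratios. The totals behind the RPKM were 110595207, 126796745, 241385710 and 119629249 in NGOs, GO1, GO2 and FGOs. Each was larger than the number of mapped reads, so reads may have been counted more than once. The printed intervals would then be too narrow, and 3 counts could stand for fewer reads. Intervals with all counts divided by 4 were therefore added after the data had been seen. The recovery of lengths and the calls were tested on simulated data, where 486 of 500 exon lengths (97.2 %) were recovered. Other alternatives were TPM, other count minimums, scalings, prior counts and thresholds.

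Genes named are all members, examples of each list (from those with the highest RPKM in any library, past 4-fold, or at 0 in some or all libraries), KLF genes above Klf4 in each library, genes overlapping a member or starting within 5 kbp of it, and for the 3 most abundant members the 3 genes with the nearest log2(RPKM + 0.1) profile. The members and the 17 lists were chosen with earlier results of these data known. Motifs were searched on both strands of RefSeq promoters (GRCm38.p6), and let-7 seed matches in the longest annotated 3′UTR of each GENCODE gene. Python 3.11.15, numpy 2.4.6, pandas 2.3.3, scipy 1.17.1 and matplotlib 3.10.9 were used.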

Additional observations from a re-analysis of the deposited data

How the results depend on the processing

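No paired analysis was possible because each stage has 1 library and no test was made. From NGOs to FGOs, 1 member was past 4-fold, and this number stayed at 1 with the deposited RPKM, the median of the log ratios, a prior count of 5 or a minimum of 100 counts. It was 2 without a filter on low counts, where Myc with 0 and 7 counts came in, and 2 at a 2-fold threshold, where Sall4 came in. From GO1 to GO2 the number was 0 under each of these settings. The number of detected members stayed within 1 of that reported when at least 10 counts or an RPKM of at least 0.1 was asked for. The 16 log2 changes of members stayed inside their counting intervals under each alternative, except for 6 with the deposited RPKM. Under that scaling the sign of Lin28b turned in both pairs, to -0.01 and 0.01. The log2 change of Sox2 from NGOs to FGOs ranged from 3.10 to 3.47. With counts divided by 4 its interval reached down to 1.77, below 4-fold, and those of Klf4 in the same pair and of Zfp42 in both pairs came to include 0. Levels as TPM were 5.31, 5.74, 5.92 and 5.33 times the RPKM in NGOs, GO1, GO2 and FGOs, which exchanged the order of GO1 and GO2 for Pou5f1 and kept the order of the libraries for the other 8 members above 0. Ranking among detected genes alone lowered the percentiles, for Sox2 in NGOs from 42.4 to 11.4.

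Depth limits what can be said of Sox2 in NGOs, which rests on 11 counts, and of Myc and Utf1 in every library. Without a replicate of any stage, the spread between oocyte pools is unknown and the intervals hold counting error only. The protocols differ between NGOs or FGOs and GO1 or GO2, so stage and protocol cannot be told apart across these pairs. Reads shared with pseudogenes, antisense genes or overlapping genes were not separated.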

Other observations

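Of 9 regulators and markers of primordial germ cells, all of which are in the table, 6, 6, 7 and 7 were detected in NGOs, GO1, GO2 and FGOs. Their summed level was 852 RPKM in NGOs and 489 RPKM in FGOs, and 968 and 821 RPKM in GO1 and GO2, most of it from Dppa3. Of 6 with enough counts from NGOs to FGOs, 3 were at least 4-fold higher, namely Prdm1, Ifitm3 and Alpl, and 0 were lower by that much, beside 8.57 % higher and 5.55 % lower among all genes with enough counts. Prdm1, which encodes the germ cell specifier BLIMP1, was at 0.110 RPKM in NGOs and 1.75 RPKM in FGOs, and at 0.514 and 0.994 RPKM in GO1 and GO2, with a log2 change from NGOs to FGOs of 4.02 (3.68 to 4.42). Ifitm3 was at 0.814, 1.90, 4.23 and 4.08 RPKM in NGOs, GO1, GO2 and FGOs, and Alpl at 0.0560, 0.131, 0.412 and 0.628 RPKM. The log2 change of Ifitm3 from NGOs to FGOs was 2.36 (1.98 to 2.80), an interval that reaches below 4-fold. In the dUTP pair 2 of 12 granulosa cell, 2 of 5 endothelial and 1 of 3 surface epithelium markers were at least 4-fold higher. Of stroma and blood markers, 0 of 7 and 0 of 5 were. The part of such cells in the Prdm1, Ifitm3 and Alpl values was not tested. From GO1 to GO2, 0 of 6 primordial germ cell genes passed 4-fold in either direction and 2 were at least 2-fold higher. Of all genes in this pair, 1.51 % were at least 4-fold higher, 0.254 % at least 4-fold lower and 6.83 % at least 2-fold higher.

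All 8 immediate early genes, which cells switch on within minutes of a stimulus, were detected in every library. Their summed level was 15.2 RPKM in NGOs and 11.0 RPKM in FGOs, and 7.44 and 6.15 RPKM in GO1 and GO2. Of these 8 genes, Fos and Jun were at least 4-fold lower in FGOs than in NGOs, and 0 were higher by that much. Of all genes with enough counts, 5.55 % were lower and 8.57 % higher by that much. Fos was at 2.68 RPKM in NGOs and at 0.0872, 0.0476 and 0.0391 RPKM in GO1, GO2 and FGOs, and Jun at 1.55, 0.0643, 0.0325 and 0.0236 RPKM. In the dUTP pair 5 of 7 stroma, 2 of 5 blood, 1 of 12 granulosa cell, 0 of 5 endothelial and 0 of 3 surface epithelium markers were at least 4-fold lower too, and the part of such cells in the Fos and Jun values was not tested. Of the immediate early genes, 0 of 8 passed 4-fold from GO1 to GO2, where 1.51 % of all genes were higher and 0.254 % lower by that much.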
